A study of Drosophila melanogaster with 8 samples.

Results

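The mitochondrial ribosomal protein genes of Drosophila melanogaster were taken as every gene of the count table whose name starts with mRpL or mRpS, which gave 73 of 17473 genes. Of these, 47 carry the name of a protein of the large subunit and 26 that of a protein of the small subunit. RNA labelled as from intestinal stem cells, the dividing cells of the fly midgut, was sequenced in 8 libraries, 2 in each of 4 groups. Flies had either control or mutant mtDNA, and each of these was studied without and with FOXO knockdown. FOXO, which insulin signalling keeps out of the nucleus, is a transcription factor. All groups went through the same recovery of RNA bound to a FLAG-tagged poly(A)-binding protein from fixed tissue. The labels give no age, sex, driver line, mtDNA allele or knockdown construct, and do not say whether the replicates came from separate flies, so p-values measure only the spread between these libraries. By its title, the series is about expression after a disruption of oxidative phosphorylation and about the role of FOXO in it.

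Mitochondria keep their own ribosome, which in animals translates the few mRNAs encoded by mtDNA, all for subunits of the respiratory chain and the ATP synthase. Its rRNAs are encoded by mtDNA, whereas all of its proteins are encoded in the nucleus, made in the cytosol and imported. Some of these proteins have a counterpart in the bacterial ribosome, and others are found in mitochondria only. By the naming used for mitochondrial ribosomal proteins, 45 genes belonged to bacterial families (29 large, 16 small) and 28 were mitochondria-specific (18 large, 10 small). In mammalian structures the proteins called S30 and S18A sit in the large subunit, but mRpS30 and mRpS18A are counted here by name. Roles given below are known from bacterial or mammalian ribosomes unless a fly gene is named.

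The libraries did not all look alike. rRNA genes took 18.2% of the counts of control replicate 1 and 30.8% of those of mutant replicate 1, the low-rRNA libraries, and 79.4% to 83.8% in the other 6, the high-rRNA libraries. Counts outside rRNA were 32186975 and 19184494 in the low-rRNA libraries and 4103725 to 7561200 in the others. Both groups labelled FOXO knockdown consisted of high-rRNA libraries. Comparisons are therefore given from a fit with a term for this library class, and the fit without it is given beside it. The foxo transcript itself had 43.3 to 66.6 CPM (read counts scaled to the library size) in the 4 libraries without knockdown and 48.1 to 53.1 CPM in the 4 labelled as knockdown. For control mtDNA the edgeR log2 fold change of foxo with the knockdown label was -0.28 (SE 0.13, adjusted p = 0.517). For mutant mtDNA it was -0.37 (SE 0.13) with an edgeR adjusted p of 0.274. Neither passed the threshold, so FOXO knockdown is used below as the label of the libraries. Of markers of other cell types, 6 enterocyte genes summed to 3715 to 9551 CPM, 8 visceral muscle genes to 239 to 838 CPM and 8 enteroendocrine genes to 73.3 to 145 CPM, against 101 to 175 CPM for 6 progenitor genes. Fat body, blood cell and tracheal markers summed to at most 9.0 CPM each, and Fbp1, Lsp1alpha, Lsp2 and NimC1 were at 0 in at least 1 library. The part of these cell types in the values below was not tested, and fewer cells of a type and less RNA per cell cannot be told apart.

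All 73 genes passed the filter on low counts. Together they had 43144 and 24658 counts in the low-rRNA libraries and 3947 to 7501 in the high-rRNA libraries. The median gene had 516 and 278 counts in the low-rRNA libraries but 42 to 75 in the others. Zero counts were found for mRpS10 and mRpS14 in FOXO knockdown control replicate 1 and for mRpL34 in FOXO knockdown mutant replicate 2. A count of 0 there allows up to 3 counts, which is 0.177 and 0.174 CPM. The genes were spread over the chromosome arms, with 12 on 2L, 12 on 2R, 17 on 3L, 21 on 3R and 11 on X. They were short, with 327 to 2078 bases of exon and a median of 783, against 2093 for the 10406 protein-coding genes tested. Exons of 43 genes overlapped those of another gene, nearly always on the opposite strand (42 genes), and in 8 genes the overlap covered over 20% of the exon length. The use of strand in counting is not given in the sources used here, so reads of such neighbours may not be separated. The whole exon of mRpL53 lies within CG33155 on the same strand, and 55.3% of mRpS24 lies opposite CG6182. The others over 20% were mRpS21 (48.0%), mRpL13 (35.2%), mRpS14 (32.0%), mRpS9 (25.1%), mRpL17 (23.6%) and mRpL48 (20.8%).

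On the scale of CPM per kilobase of exon, averaged over the 8 libraries, the median gene stood at 3.75, against 2.56 for protein-coding genes tested. The 10th and 90th percentiles of the set were 2.27 and 7.34. Large and small subunit genes had medians of 3.67 and 3.88, and bacterial-type and mitochondria-specific genes 3.83 and 3.58. The 3 highest averages per kilobase were those of mRpS5 (12.1), mRpL53 (8.54) and mRpS7 (8.43). The 3 lowest were those of mRpL21 (1.43), mRpL36 (1.71) and mRpS14 (1.74). mRpS5 and mRpS7 are counterparts of bacterial proteins beside the mRNA entry and exit of the small subunit, and mRpL53 belongs to the mitochondria-specific set. The order depended on the library class. In the low-rRNA libraries mRpL12, the stalk protein that recruits translation factors, ranked 1 with a mean of 14.1 CPM per kilobase and mRpL28 ranked 2 with 13.6. In the high-rRNA libraries these genes ranked 13 and 11, with 5.73 ± 1.76 and 6.39 ± 0.929 CPM per kilobase (SD, n = 6), and the first rank was held by mRpS5.

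Summed over the 73 genes, control replicates 1 and 2 had 344 and 239 CPM, and mutant replicates 1 and 2 had 374 and 267 CPM. It was 263 and 252 CPM in the FOXO knockdown controls and 245 and 238 CPM in the FOXO knockdown mutants. Both low-rRNA libraries lay above all 6 high-rRNA libraries, and the high-rRNA libraries of the 4 groups spanned only 238 to 267 CPM. The ratio of the large to the small subunit in summed CPM per kilobase lay between 1.57 and 1.85 in every library. It was 1.75 and 1.61 in control, 1.85 and 1.57 in mutant, 1.62 and 1.71 in FOXO knockdown control, and 1.77 and 1.76 in FOXO knockdown mutant replicates, so the groups without knockdown overlapped in this ratio and those with knockdown did not. No test was run on it.

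**Figure D1:**
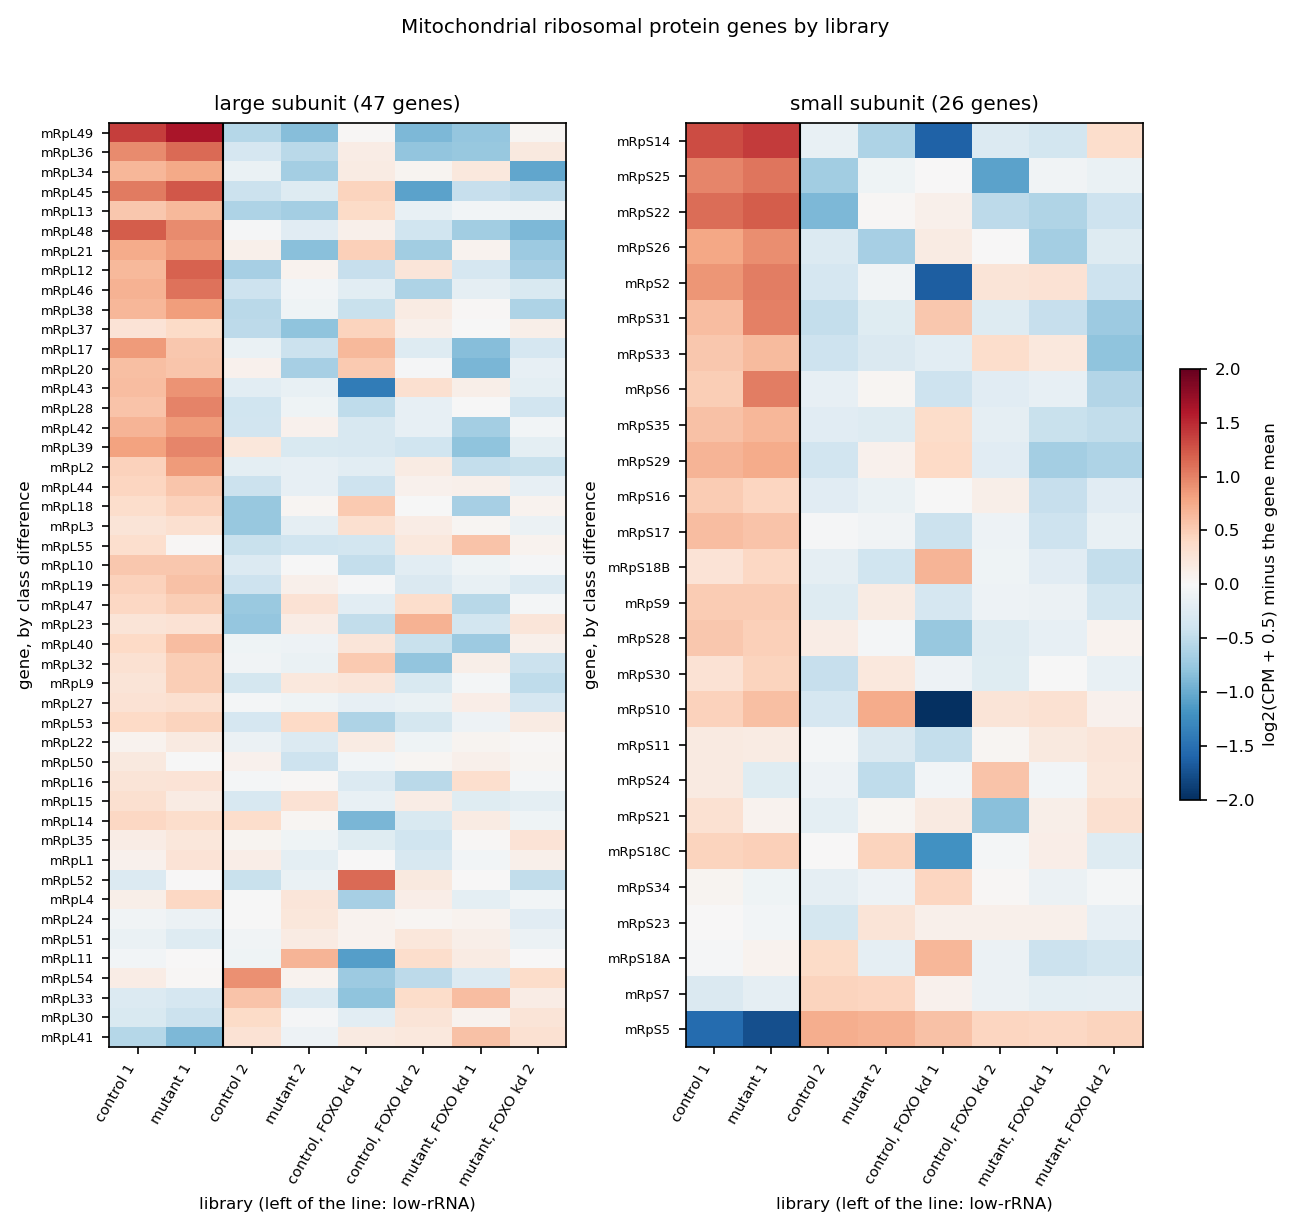
Level of each gene by library, as log2(CPM + 0.5) minus the gene's mean over the 8 libraries (colour), for 47 large and 26 small subunit genes. The 2 low-rRNA libraries stand left of the line. Most genes are higher (red) there, mRpS5 is lower (blue), and the 6 columns to the right show no block that follows the mtDNA or the knockdown label.

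The 18 calls in the set were all between the library classes. In the edgeR quasi-likelihood fit, at an adjusted p under 0.05, 16 of 73 genes had a higher level in low-rRNA than in high-rRNA libraries and 2 had a lower one. Over all 11561 genes tested, 15.3% were called higher and 15% lower, so the count of higher calls was not far from the background, while the direction was less even. The log2 difference was positive for 63 of 73 genes with a median of 0.75, against a median of 0.09 over all genes. Of the 16 calls, 12 were among the 28 mitochondria-specific genes and 4 among the 45 bacterial-type genes. The difference between these shares was not tested. The class difference had the same sign in the control pair and the mutant pair of libraries for 67 genes. Summed enterocyte markers were also higher in the low-rRNA libraries (6865 and 9551 CPM against 3715 to 4550), as were visceral muscle markers (829 and 838 CPM against 239 to 573). Summed enteroendocrine markers were lower there (96.9 and 73.3 CPM against 111 to 145). Of the 8, 3 were called lower and 1, Tk, was called higher (log2 difference 0.69). Of the 6 progenitor markers, Dl (1.30) and Sox21a (1.44) were called higher, but only 3 estimates were positive (median 0.01). Their sums overlapped between the classes (175 and 106 CPM against 101 to 155). In addition, 9 of 13 mRNAs encoded by mtDNA (median log2 difference -2.94) and both mitochondrial rRNAs were called lower. The part of these in the class difference was not tested.

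The gene called higher with the largest change was mRpL49, a mitochondria-specific protein of the large subunit. Its low-rRNA values were 5.03 CPM (control) and 6.05 CPM (mutant), while the other 6 libraries had 0.638 to 1.68 CPM. The log2 difference was 2.79 (SE 0.57, edgeR adjusted p = 0.00316). mRpS22, of the mitochondria-specific small subunit set, had 12.5 and 13.3 CPM against 2.69 to 5.92 CPM (log2 difference 1.71, SE 0.31, edgeR adjusted p = 0.00148). mRpL45, whose mammalian counterpart anchors the ribosome to the inner membrane, had 9.41 and 10.9 CPM against 1.79 to 6.03 CPM. In these genes the classes did not overlap. The other genes called higher were mRpL2, mRpL12, mRpL13, mRpL28, mRpL37, mRpL38, mRpL46, mRpL48, mRpS25, mRpS26, mRpS29, mRpS31 and mRpS35, with log2 differences from 0.91 to 1.72. More than 20% of the exon of mRpL13 (35.2%, same strand) and mRpL48 (20.8%, opposite strand) overlaps a neighbour.

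Against most of the set, mRpS5 was lower in the low-rRNA libraries, with the largest of the 10 negative differences. It had 5.54 CPM in control replicate 1 and 4.68 CPM in mutant replicate 1. The second replicates had 28.6 and 27.9 CPM. The FOXO knockdown controls had 26.0 and 23.2 CPM and the FOXO knockdown mutants 23.0 and 23.4 CPM. The log2 difference between the classes was -2.47 (SE 0.15, edgeR adjusted p = 4.19e-07). This single gene made up 9.22% to 12% of the summed CPM of the set in the high-rRNA libraries, but 1.61% and 1.25% in the low-rRNA libraries. mRpS7 was the other gene called lower, with 6.13 and 6.64 CPM against 6.55 to 10.5 CPM (log2 difference -0.71, SE 0.22, edgeR adjusted p = 0.0307), and here the values of the classes met. The identifier of mRpS5 in the table is not in the annotation used for lengths, and its exon length was taken from the gene of the same name.

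**Figure D2:**
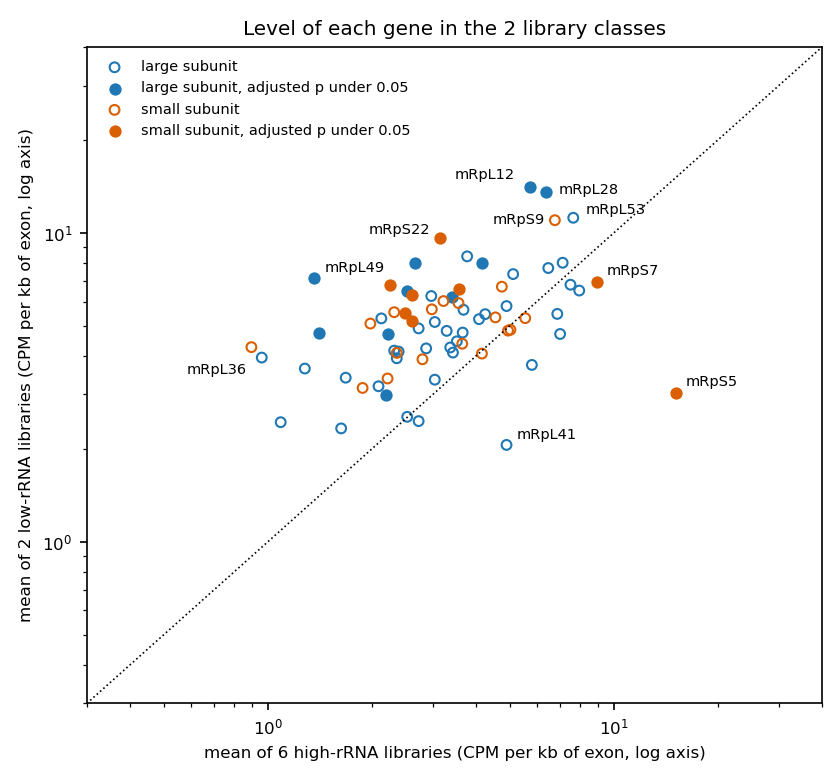
Mean level of each gene in CPM per kilobase of exon in the 6 high-rRNA libraries (x, log axis) and the 2 low-rRNA libraries (y, log axis). Filled points are the 18 genes with an adjusted p under 0.05. Most points lie above the dotted line of equal level, and mRpS5 lies far below it.

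Whether mutant mtDNA changes the set was asked first without FOXO knockdown. None of the 73 genes was called by edgeR, with or without the class term, where 2.08% of all genes tested were called with the class term and 0% without it. At an unadjusted p under 0.05 there was 1 gene, which is 1.37% of the set against 10.9% of all genes. DESeq2 and limma-voom called 0 of the 73 genes, against 476 and 543 of all 11561 genes, and had 0 of the set at the unadjusted level. The median log2 fold change was 0.05 (all genes 0.01), with 42 of 73 genes positive and a range from -0.59 to 0.71. Without the class term the median was 0.11 (all genes 0.01), with 43 positive. The 95% interval lay wholly within a 2-fold change either way for 26 genes. For the other genes the libraries could not place the change within 2-fold. Large and small subunit genes had medians of 0.09 and 0.04. In the same comparison 2 of 6 progenitor markers, Dl and Sox100B, fell in the mutant, and 2 of 6 enterocyte markers, betaTry and Jon25Bi, rose. The visceral muscle marker up (log2 fold change 0.72, 1 of 8 called) rose as well. So did the enteroendocrine marker NPF (2.05, 1 of 8 called), but only 2 of these 8 markers had positive estimates (median -0.66). The part of these genes in the values of the set was not tested.

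The gene with the smallest p was mRpL12. It had 8.38 and 3.08 CPM in control and 12.4 and 5.44 CPM in mutant replicates. The mutant library was higher in both classes, by 0.56 and 0.82 on the log2 scale, although the groups overlapped. The fitted log2 fold change was 0.68 (SE 0.30, 95% interval 0.01 to 1.35, edgeR adjusted p = 0.442). The other largest positive estimates were those of mRpS10 (0.71, interval -1.24 to 2.67) and mRpL47 (0.60, interval -0.26 to 1.46), both counterparts of bacterial proteins. The largest negative ones were those of mRpL34 (-0.59, interval -3.26 to 2.08), mRpL54 (-0.58, interval -1.76 to 0.60) and mRpL33 (-0.56, interval -1.87 to 0.75). All 5 of these intervals hold 0. Across the 73 genes, the difference between mutant and control had the same sign in the low-rRNA pair and the high-rRNA pair for 45 genes. The SD of that difference over genes was 0.22 in the low-rRNA pair and 0.60 in the high-rRNA pair, where counting alone gives 0.12 and 0.30.

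**Figure D3:**
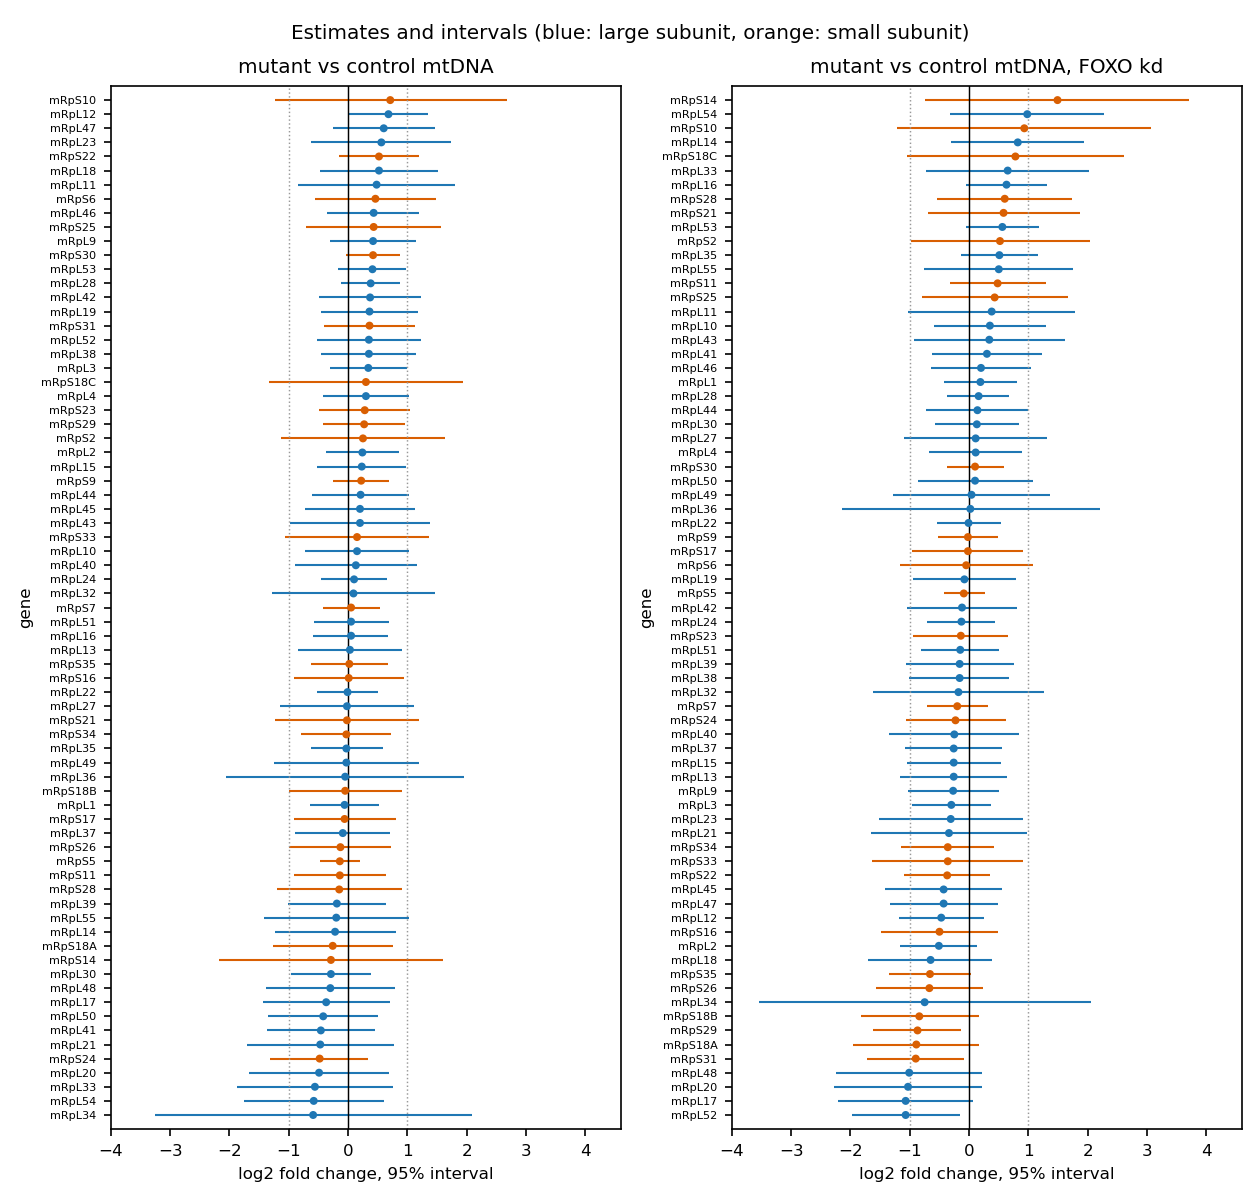
Log2 fold change (points) and 95% interval (lines) of each gene for mutant against control mtDNA, without (left) and with (right) FOXO knockdown, ordered by estimate. Dotted lines mark a 2-fold change. Most intervals cross 0, with 1 exception on the left and 3 on the right, none of which passes the adjusted threshold.

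With FOXO knockdown, mutant against control mtDNA again gave 0 calls among the 73 genes, where 0.164% of all genes were called with the class term and 0% without it. There were 3 genes (4.11%) at an unadjusted p under 0.05, against 8.62% of all genes. DESeq2 and limma-voom called 0 of the 73 genes, against 156 and 45 of all 11561 genes, with 3 and 1 of the set at the unadjusted level. The median log2 fold change was -0.12 (all genes 0.03), with 30 genes positive, and 15 intervals lay within 2-fold. Without the class term it was -0.11, also with 30 positive. mRpL52, a mitochondria-specific protein of the large subunit, had 7.99 and 3.96 CPM in FOXO knockdown controls and 3.40 and 2.26 CPM in FOXO knockdown mutants, so the groups did not overlap. The fitted log2 fold change was -1.07 (SE 0.41, 95% interval -1.98 to -0.16, edgeR adjusted p = 0.526). mRpS31 had 5.68 and 3.06 against 2.58 and 2.08 CPM (log2 fold change -0.90, SE 0.37, edgeR adjusted p = 0.566). mRpS29, the GTP-binding protein of the small subunit, had 5.86 and 3.64 against 2.54 and 2.66 CPM (log2 fold change -0.87, SE 0.34, edgeR adjusted p = 0.530). In each of these genes the first replicate of the knockdown controls was the highest of the 4 libraries.

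The other estimates at the ends of this comparison had wide intervals. They were -1.07 for mRpL17 (interval -2.21 to 0.07) and -1.03 for mRpL20 (interval -2.28 to 0.22), both bacterial-type proteins of the large subunit. On the positive side stood mRpS14 at 1.49 (interval -0.74 to 3.71), mRpL54 at 0.98 (interval -0.33 to 2.28) and mRpS10 at 0.93 (interval -1.21 to 3.07). mRpS14 had 0 and 0.766 CPM against 0.696 and 1.45 CPM, and mRpS10 0 and 2.11 against 2.17 and 1.80 CPM, so both estimates rest on a library at 0. Within this group the replicates differed widely. The SD over genes of the log2 ratio of the FOXO knockdown control replicates was 0.97 (71 genes), against 0.37 from counting alone. When FOXO knockdown control replicate 2 was left out, 7 of the 73 genes were called, where 5.38% of all genes tested in that fit were called. mRpS2 (log2 fold change 2.63), mRpL43 (1.90), mRpS10 and mRpS14 were called higher, and mRpL52 (-1.46), mRpS31 (-1.26) and mRpS29 (-1.16) lower. Control mtDNA was then represented by the remaining knockdown library alone, in which mRpS2 had 0.355 CPM and mRpL43 0.71 CPM, against 2.68 and 3.45 CPM in the library left out.

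**Figure D4:**
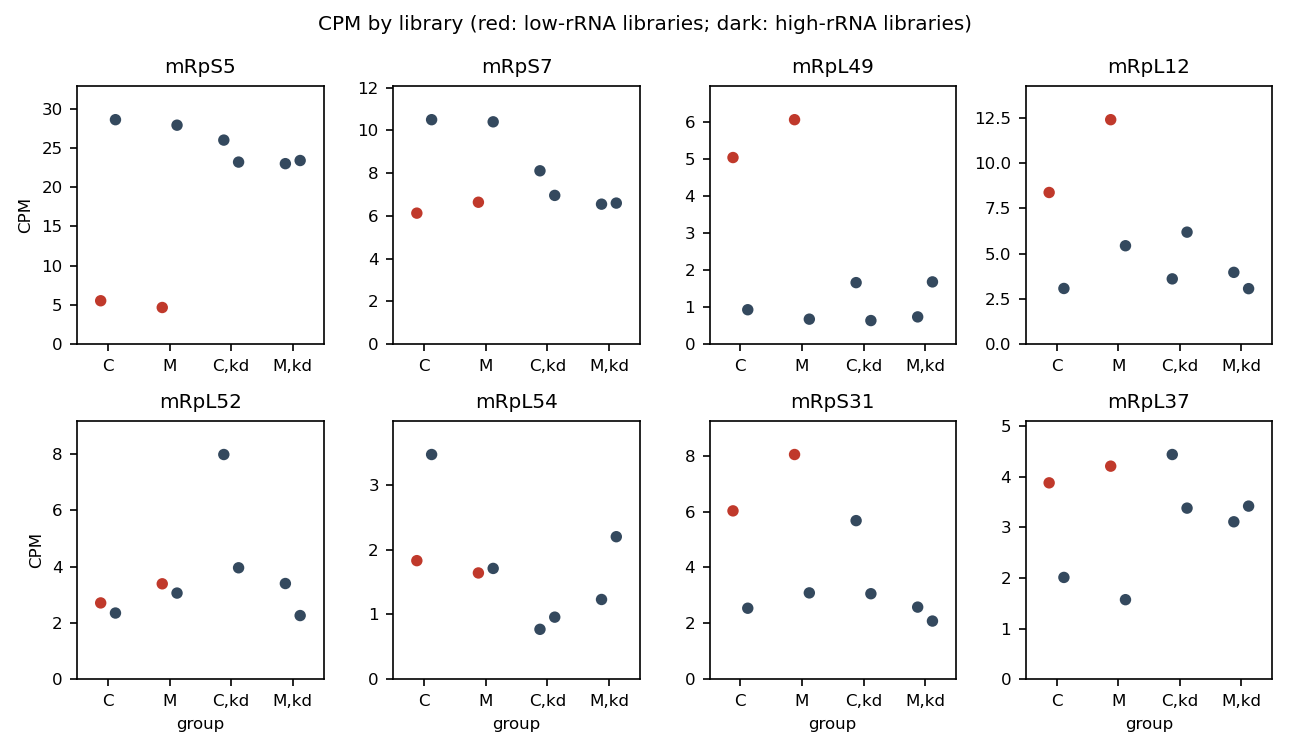
CPM of 8 genes in every library by group (C control mtDNA, M mutant mtDNA, kd FOXO knockdown), with low-rRNA libraries in red and each axis starting at 0. In mRpS5 and mRpL49 the red points stand apart. In mRpL52 and mRpS31 the knockdown control points lie above the knockdown mutant points, and in mRpL54 below them.

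FOXO knockdown against none was asked in each mtDNA background. These comparisons set high-rRNA libraries against groups of both classes, so their values with the class term assume the same class effect with control and with mutant mtDNA. With control mtDNA 0 of 73 genes were called, where the background was 0.571% with the class term and 0% without it. At an unadjusted p under 0.05 there were 4 genes by edgeR (mRpL3, mRpL37, mRpL52 and mRpL54). That is 5.48% of the set against 9.74% of all genes. DESeq2 and limma-voom had 4 each and called 0 of the 73 genes, against 200 and 114 of all 11561 genes. The median log2 fold change was 0.13 (all genes -0.03) with 43 genes positive. Without the class term it was -0.28 (all genes -0.11) with 18 positive, so the direction of the set turned with the class term. With mutant mtDNA 0 genes were called, against 1.9% of all genes with the class term and 0% without it. There was 1 gene at an unadjusted p under 0.05 by each of the 3 tools, by edgeR 1.37% of the set against 10.1% of all genes. DESeq2 and limma-voom called 0 of the 73 genes, against 420 and 357 of all 11561 genes. The median was -0.09 (all genes 0.01) with 29 genes positive, and -0.51 (all genes -0.04) with 16 positive without the class term. Intervals lay within 2-fold for 10 and 13 genes.

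Some genes of the previous comparisons stood at the ends of these too, and the comparisons share libraries. mRpL52 had 2.71 and 2.35 CPM in control against 7.99 and 3.96 CPM in FOXO knockdown control replicates, without overlap (log2 fold change 1.33, SE 0.46, edgeR adjusted p = 0.371). mRpL54, a mitochondria-specific protein of the large subunit, had 1.83 and 3.47 against 0.769 and 0.957 CPM, also without overlap (log2 fold change -1.80, SE 0.65, edgeR adjusted p = 0.361). mRpL37 had 3.88 and 2.01 against 4.44 and 3.38 CPM (1.09, interval 0.17 to 2.02), and without the class term its estimate was 0.39. mRpL18 (1.01, interval -0.16 to 2.18), mRpL14 (-1.11, interval -2.34 to 0.12) and mRpS18C (-1.02, interval -3.01 to 0.97) had intervals that hold 0. With FOXO knockdown control replicate 2 left out, 4.93% of all genes and 3 of the 73 were called: mRpL52 (1.73) higher, and mRpS10 and mRpS14, at 0 in the remaining library, lower.

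With mutant mtDNA, the smallest p was that of mRpS7. It had 6.64 and 10.4 CPM in mutant and 6.55 and 6.60 CPM in FOXO knockdown mutant replicates, so both knockdown libraries lay below both others, the first only by a narrow margin. The fitted log2 difference was -0.69 (SE 0.26, edgeR adjusted p = 0.306), and -0.37 without the class term. The remaining estimates at the ends were 1.12 for mRpL55 (interval -0.27 to 2.51), 0.92 for mRpL37 (interval 0.01 to 1.84), 0.80 for mRpS14 (interval -1.42 to 3.01), -0.86 for mRpL48 (interval -2.17 to 0.46) and -0.72 for mRpS29 (interval -1.53 to 0.09). The estimate for mRpS14 turned to -0.94 without the class term.

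**Figure D5:**
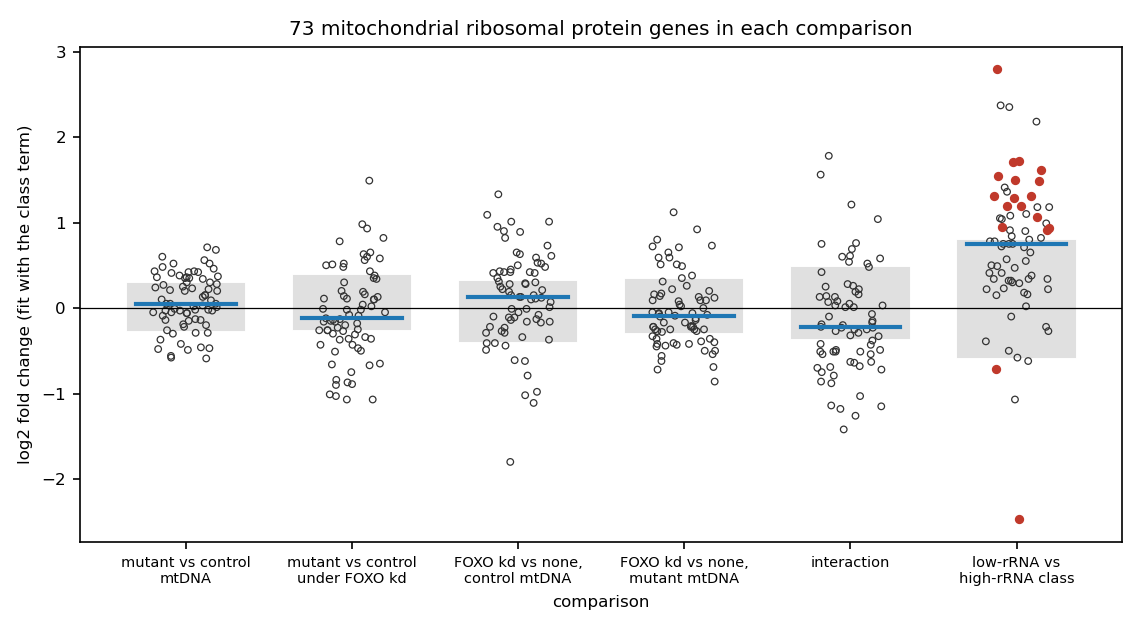
Log2 fold change of each of the 73 genes (points) in the 5 comparisons and between the library classes, from the fit with the class term. Red points have an adjusted p under 0.05, blue lines are medians of the set, and grey boxes span the interquartile range of all 11561 genes. The 18 red points all stand in the last column.

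Whether the difference between mutant and control mtDNA itself depended on the knockdown label was tested as an interaction. It gave 0 calls among the 73 genes, where 0.51% of all genes were called with the class term and 0% without it. At an unadjusted p under 0.05 edgeR gave 4 genes (mRpL12, mRpL52, mRpS29 and mRpS31), 5.48% of the set against 9.22% of all genes. DESeq2 had 4 and limma-voom 2, and both called 0 of the 73 genes, against 281 and 162 of all 11561 genes. The median was -0.22 (all genes 0.03) with 30 genes positive, and the median SE of 0.58 left 7 intervals within 2-fold. Without the class term the median was -0.23 with 24 positive. The most negative estimates were those of mRpL52 (-1.42, SE 0.58, edgeR adjusted p = 0.474), mRpS31 (-1.26, SE 0.51, edgeR adjusted p = 0.476) and mRpL18 (-1.18, interval -2.62 to 0.27). The most positive were those of mRpS14 (1.78, interval -1.14 to 4.70), mRpL54 (1.56, interval -0.20 to 3.31) and mRpL33 (1.21, interval -0.69 to 3.10). Without FOXO knockdown control replicate 2, 4.03% of all genes and 4 of the 73 were called: mRpL52 (-1.82), mRpS31 (-1.62), mRpS10 and mRpS14.

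Other parts of the mitochondrial translation machinery were read from the same fit. The fly genes tko and bonsai encode the small subunit proteins S12 and S15 under names that the rule does not take. tko had 6.46 and 1.42 CPM in control, 6.87 and 2.74 in mutant, 4.73 and 2.55 in FOXO knockdown control, and 2.05 and 5.10 in FOXO knockdown mutant replicates. It was called higher in the low-rRNA libraries (log2 difference 1.73, edgeR adjusted p = 0.0149) and in none of the 5 comparisons. bonsai stayed between 4.14 and 8.57 CPM and was not called in any of them. Of 9 mitochondrial translation factors, 11 genes listed under mitochondrial gene expression and 16 mitochondrial aminoacyl-tRNA synthetase genes, 0 were called in the 5 comparisons. In the class contrast, 2 of the 9 translation factor genes were called, mEFTu1 (1.62) and mEFTu2 (1.57), both higher in the low-rRNA libraries. Of the 11 genes, mtTFB1 (0.93) and mtRNApol (0.68) were higher and Letm1 (-0.45) lower. Ccdc56 covers the whole exon of mtTFB1 on the same strand, and both have 4544 counts in total. Of the 16 synthetase genes, ArgRS-m (1.27) and PheRS-m (1.14) were higher and ProRS-m (-0.85) and IleRS-m (-1.10) lower.

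Of the rRNAs with which these proteins assemble, the large one was called in the first comparison. The large rRNA of the mitochondrial ribosome, mt:lrRNA, had 1008 and 5980 CPM in control and 743 and 2717 CPM in mutant replicates, and the mutant was lower in both classes. The fitted log2 difference was -0.79 (SE 0.17, edgeR adjusted p = 0.0361), and -1.01 without the class term, where no gene was called. The small rRNA, mt:srRNA, had 7.53 and 52.0 against 7.82 and 21.2 CPM (-0.62, SE 0.38, edgeR adjusted p = 0.714). Among the 13 mRNAs encoded by mtDNA, 4 were called lower in that comparison and 0 higher, with a median of -1.04, against 0.05 for the 73 protein genes. With FOXO knockdown 1 of the 13 was called lower (median -0.55). Knockdown against none gave 2 lower calls with either mtDNA (medians -0.45 with control and -0.13 with mutant mtDNA), and the interaction gave 0 calls (median 0.09). Over all genes, 2.08%, 0.164%, 0.571%, 1.9% and 0.51% were called in the 5 comparisons, and 0% without the class term. Without that term most knockdown estimates of the 13 mRNAs were positive with either mtDNA. With it, 0 were positive with control and 3 with mutant mtDNA. The estimates of mt:ND1 turned from -0.69 to 0.19 with control and from -0.76 to 0.36 with mutant mtDNA. That of mt:CoI, called with control mtDNA, went from -0.67 to -0.12 there. The knockdown estimates of mt:ND4 stayed negative (-0.17 and -0.31). With FOXO knockdown, mt:lrRNA had 4420 and 3676 against 3189 and 3567 CPM (-0.26, SE 0.17, edgeR adjusted p = 0.666).

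Cytosolic ribosomal protein genes were tested as the most similar gene family, with 86 of 93 passing the filter. For mutant against control mtDNA 5 were called higher and 0 lower, and their median was 0.24 on the log2 scale. With FOXO knockdown 3 were called lower (median -0.38). Knockdown against none gave 0 calls with control mtDNA (median 0.14) and 29 lower calls with mutant mtDNA (median -0.50), and the interaction gave 11 lower calls (median -0.62). The shares called over all genes tested were 2.08%, 0.164%, 0.571%, 1.9% and 0.51% in the same order. Without the class term no gene, cytosolic ribosomal protein genes included, was called in any of these comparisons. In the class contrast 80 were called higher and 3 lower (median 1.68). The medians of the mitochondrial genes over the same 5 comparisons were 0.05, -0.12, 0.13, -0.09 and -0.22, with 0 calls in each. The comparisons share libraries, and the gene families differ in depth: the median SE for mutant against control mtDNA was 0.12 for the cytosolic and 0.40 for the mitochondrial genes. The difference between the families was not tested.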

How the data were processed

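Counts of reads per gene in 8 libraries were used as the authors deposited them, raw and not normalized. The submitters' processing notes name FastQC, cutadapt, HISAT2, featureCounts and limma. Versions, genome build, annotation and use of strand are not given in the sources used here. Groups came from the labels, and columns were matched by the short names in the titles. Exon lengths, chromosome arms and overlaps came from the Ensembl annotation of release BDGP6.54. Of 17473 identifiers, 17331 matched it by identifier and 51 by symbol, mRpS5 among them.

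Counts were fitted with edgeR 4.0.16 in R 4.3.3 by quasi-likelihood (glmQLFit, glmQLFTest), after filterByExpr on the 4 groups (11561 genes) and TMM scaling, with 1 mean per group and a term for the library class (rRNA share below or above 50%). Tests were two-sided and adjusted by Benjamini-Hochberg over all genes tested, at 0.05. Fold changes are fitted log2 values, and 95% intervals use the Wald standard error with 11.7 degrees of freedom. Only the groups without knockdown hold both classes and inform that term. The fit has 3 residual degrees of freedom among libraries. CPM are on TMM-scaled library sizes. Libraries held 21133996 to 39327066 counts in total. As CPM, 3 counts, the limit that a count of 0 allows, are 0.0239 to 0.191 CPM. This covers counting error only.

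Named were, in each comparison, any gene past the threshold and the 3 with the largest positive and negative estimates. So were the 3 highest and lowest levels per kilobase and genes with over 20% of the exon overlapping a neighbour. Outside the set, the mitochondrial rRNAs, tko, bonsai and up to 5 called genes per list were named. Genes at an unadjusted p under 0.05, mRpS22, mRpL45 and the cases called without 1 library are given in addition, some chosen after their values were seen. The genes, lists, class split and tests were chosen with earlier results of these data known. Alternatives were another size factor, total counts, no rRNA genes in the scaling, 2 filters (none, or at least 5 CPM in 2 libraries), DESeq2 1.42.0, limma-voom (limma 3.58.1), no class term, only the 6 high-rRNA libraries, a replicate block, a threshold of 0.01, and leaving out each library. Figures were made with matplotlib 3.10.9.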

Additional observations from a re-analysis of the deposited data

Results flagged for a closer look

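In some genes, 5 of which are given here, mutant libraries lay on one side of control libraries without FOXO knockdown, compared within each library class. With FOXO knockdown they lay on the other side. Other genes of the set, mRpL2 and mRpL3 among them, had the same pattern, and its share over all genes was not counted. The interaction estimates were -1.42 for mRpL52, -1.26 for mRpS31, -1.14 for mRpS29, 1.56 for mRpL54 and 1.04 for mRpL14 on the log2 scale. The test of the difference did not pass the threshold for any of them. Without knockdown, mutant minus control in the low-rRNA pair was only 0.06 for mRpS29 and -0.07 for mRpL14 on the log2 scale. Counting alone gives an SD of 0.12 over the set in that pair. For mRpL54, the mutant libraries had 1.64 and 1.71 CPM against 1.83 and 3.47 CPM in control, and 1.23 and 2.20 against 0.769 and 0.957 CPM with knockdown. For mRpS31, they had 8.05 and 3.09 against 6.03 and 2.54 CPM, and 2.58 and 2.08 against 5.68 and 3.06 CPM with knockdown. For mRpL52 and mRpS31 the test passed only when FOXO knockdown control replicate 2 was left out. The 5 genes were picked by looking over those named in the report and are not a full list.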

How the results depend on the processing

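The number of called genes of the set was 0 in 97 combinations of comparison and alternative. In the other 3, without FOXO knockdown control replicate 2, it was 7 (mutant against control mtDNA with knockdown), 3 (knockdown against none with control mtDNA) and 4 (interaction), so leaving out 1 library gave ranges of 0 to 7, 0 to 3 and 0 to 4. Over all 12642 genes tested in that fit, the calls rose to 680, 623 and 510, from 19, 66 and 59. The lone remaining library of that group is then assumed to vary like the others, and 2 of the calls in each comparison, mRpS10 and mRpS14, rest on a count of 0 in it. Among estimates of named genes, 6 turned sign, 548 kept direction and call, and 7 became called. The 6, none of them called, were mRpL34 for mutant against control mtDNA (0.02 by limma-voom, and 0.09 and 0.12 without control or mutant replicate 2, with a lowest value of -1.59 without mutant replicate 1), mRpS10 under knockdown (-0.08 without FOXO knockdown control replicate 1, and 9.39 without replicate 2, which is no bound because the group is then at 0), and mRpS14 for knockdown with mutant mtDNA (-0.94 without the class term, -0.74 with a replicate block and no class term). The cause was not tested. The median over the set moved beyond the spread between replicates, for which an SD of 0.0655 was taken, in 15 cases and stayed within it in 80. That SD is small beside the median log2 ratio of replicates in control (0.78) and mutant (0.59), whose replicates differ in class. In the FOXO knockdown controls and mutants this ratio was 0.09 and 0.04. Total-count scaling shifted the median of all genes by -0.25, -0.13, -0.25, -0.13 and 0.12 in the order of the report, and that of the set to -0.20, -0.26, -0.13, -0.21 and -0.08, so both shifted in the same direction.

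Deviations of same-numbered libraries correlated at 0.689 for control and mutant, and at -0.0367 to 0.00208 elsewhere. In control and mutant the replicate number and the library class coincide, so a pairing by number cannot be told apart from the class there. With a replicate block and the class term 0 genes of the set were called in every comparison, and the median for knockdown with control mtDNA was 0.06 in place of 0.13. Over all genes, the count for mutant against control mtDNA was 241 (167 higher), 94 (25 higher) with total counts, 476 by DESeq2, 543 by limma-voom and 0 without the class term. By DESeq2 the counts were 156 in place of 19, 200 in place of 66, 420 in place of 220 and 281 in place of 59 for the other comparisons. Depth limits single genes: the median count in a high-rRNA library was 42 to 75.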
